A study of Mus musculus with 6 samples.

Results

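The epidermis of newborn mice of 2 genotypes was profiled, and the keratins of the epidermis and of the hair follicle are described here. They were taken as every gene on the array whose symbol is Krt followed by a number, with or without a final a or b, except Krt8, Krt18, Krt19 and Krt20, the keratins of Merkel cells and simple epithelia. Symbols came from the RefSeq identifier of each probe. The rule found 36 genes, read by 40 probes, of 18217 named genes on the array. Of these, 32 passed the filter on dim signal (well above background on at least 3 of 6 arrays), as did 12824 of all named genes. Krt4, Krt76, Krt90 and Krt222 were not well above background on any array. By their known place of expression, 3 of the 36 were grouped as basal, 5 as suprabasal, 4 as stress, 2 as companion layer and infundibulum, 4 as inner root sheath and 9 as hair shaft keratins, and 9 as others. No probe was mapped to the sheath keratins Krt28, Krt72, Krt73 and Krt74 or the shaft keratins Krt32, Krt36, Krt39, Krt40, Krt81, Krt83 and Krt85. The same held for the suprabasal keratins Krt77 and Krt80. The suprabasal, sheath and shaft groups therefore cover only a part of these keratins.

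Both genotypes were of mixed strain (labelled "mix") and taken on postnatal day 0, and the labels name no treatment. AhRCA mice carry a constitutively active form of AhR, the aryl hydrocarbon receptor, which binds dioxins and other foreign compounds and acts on transcription, driven by the promoter of keratin 14, so that the transgene is directed to basal keratinocytes and the outer root sheath of the follicle. The labels do not say whether the mice came from 1 founder line. The wild-type (WT) samples were littermates, and each of 3 samplings held 1 mouse of each genotype. Each mouse was read on 1 Agilent array with 1 dye, and levels are log2 intensities relative to the 75th percentile of the array, so that 1 unit is a 2-fold difference; they compare arrays for a gene, not genes with each other.

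Keratins are the intermediate filament proteins of epithelial cells, and each filament pairs a type I with a type II keratin. Keratinocytes of the basal layer make Krt5 and Krt14, and exchange them for Krt1 and Krt10 when they move up and differentiate. Krt6a, Krt6b, Krt16 and Krt17 belong to the follicle and appendages and are induced in the epidermis after wounding and in inflammation. In the follicle the companion layer, the inner root sheath, which moulds the growing hair, and the hair shaft itself each have keratins of their own, and the shaft keratins are embedded in keratin-associated proteins. At birth the follicles of mouse skin are at several stages of growth, and many have not yet formed a shaft.

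Arrays had 56.2% to 61.3% of their spots above background by the scanner software's test and 0 saturated spots, and precision was limited by the 3 arrays of each genotype. Slide 1 carried replicates 1 and 2 of both genotypes, and slide 2 carried replicate 3 of both. By Xist (log2 intensity 4.43 to 4.66 on slide 1, -7.14 and -4.20 on slide 2) the mice of pair 3 were male and the others female, so that slide, pair 3 and sex coincided and were balanced between genotypes. Same-numbered arrays deviated together from their group means (r = 0.337, 0.372 and 0.550 across 12821 genes, which are not independent replicates), and numbers were taken as littermate pairs. The labelled tissue was borne out by its markers: Krt5, Krt14, Krt1, Krt10 and the cornified envelope gene Lor were well above background on all 6 arrays. On none of the arrays were 3 of 5 skeletal muscle markers and 3 of 11 markers of dermal cells well above background. Another 2 muscle and 7 dermal markers passed the filter on dim signal, so that transcripts of these lists were present. Among them Dcn stood at 4.39, 4.54 and 4.08 in WT and 4.17, 4.13 and 4.16 in AhRCA.

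Keratins of the hair shaft, the inner root sheath and the companion layer were lower in AhRCA epidermis, whereas the main keratins of the basal and spinous layers stood at nearly the same level in both genotypes. The median log2 fold change, AhRCA over WT, was -1.82 for the 9 hair shaft keratins, -1.25 for the 4 of the inner root sheath, -1.02 for the 2 of companion layer and infundibulum and -0.75 for the 4 stress keratins. It was -0.051 for the 5 suprabasal keratins, 0.0018 for the 3 basal keratins and 0.0013 for all 12824 genes. Of the 32 keratins tested, 4 fell and 0 rose (limma, p adjusted by Benjamini-Hochberg over all genes, threshold 0.05); 20 had an unadjusted p under 0.05, all 20 of them lower, where 7.57% of all genes had one and were lower and 4.62% had one and were higher. The 4 are 12.5% of the keratins, against a background of 1.65% of all genes called lower and 0.53% called higher. Fitted with the litter pair as a replicate block, 13 keratins fell and 0 rose (40.6%, against 2.81% of all genes called lower and 1.07% called higher). Fitted with the slide as a block, 6 fell and 0 rose, against 2.91% of all genes called lower and 1.29% called higher; these were Krt15, Krt16, Krt26, Krt33b, Krt75 and Krt79. On 19 of 32 keratins every AhRCA array lay below every WT array, which was so for 8.84% of all genes, and 23 were lower in AhRCA in all 3 litter pairs, against 20.1% of all genes. In whole epidermis fewer cells of a type and less transcript per cell cannot be told apart.

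The 4 calls without the block depend on single arrays. They were Krt15, Krt33b, Krt34 and Krt75. When WT replicate 2 or 3 or AhRCA replicate 1 or 2 was left out, 0 keratins passed. Without AhRCA replicate 3 only 1 passed, Krt33b. Without WT replicate 1 there were again 4, but not the same ones: Krt15, Krt26, Krt31 and Krt34, while Krt33b and Krt75 lost their call. The medians of the hair shaft and the inner root sheath stayed negative whichever array was left out, between -2.13 and -1.41 and between -1.51 and -0.97.

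**Figure D1:**
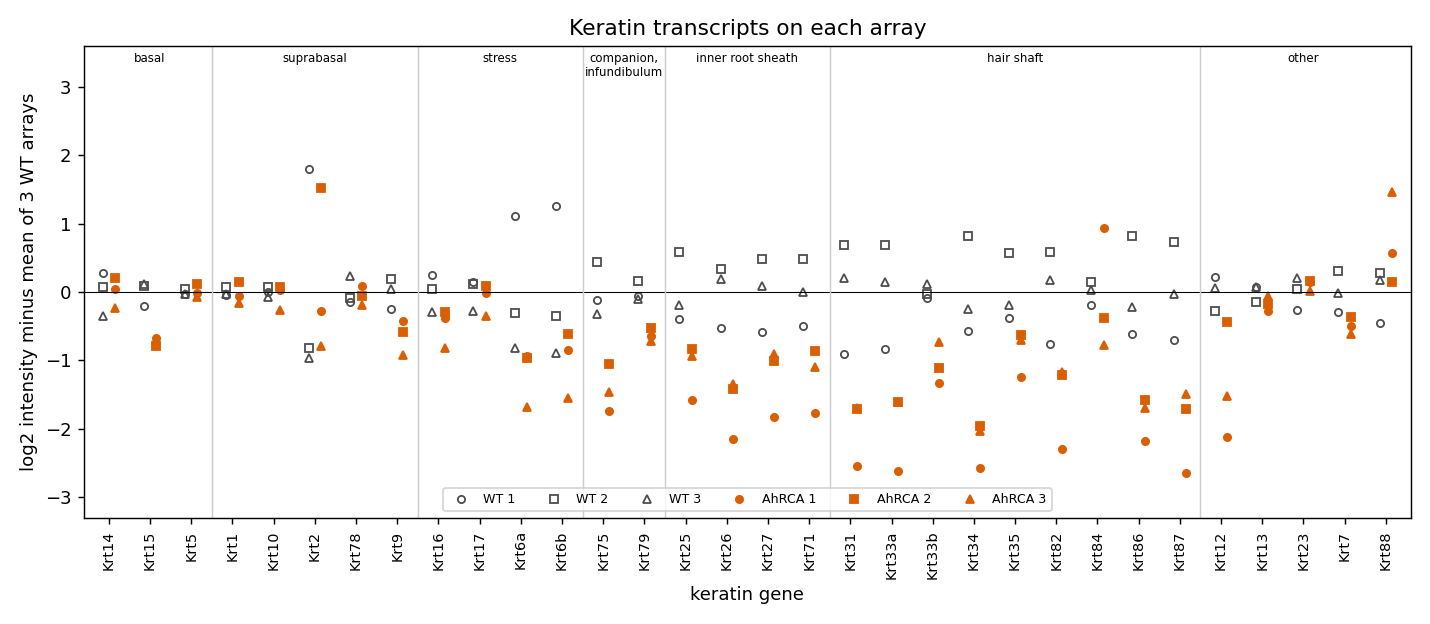
Each point is a tested keratin on 1 array, as log2 intensity minus the mean of the 3 WT arrays (open grey symbols, WT; filled orange symbols, AhRCA; circle, square and triangle, litter pairs 1, 2 and 3), with genes grouped by place of expression. For all 4 inner root sheath keratins and 8 of 9 hair shaft keratins the AhRCA arrays lie below the WT arrays, while Krt5, Krt1 and Krt10 stay near 0.

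**Figure D2:**
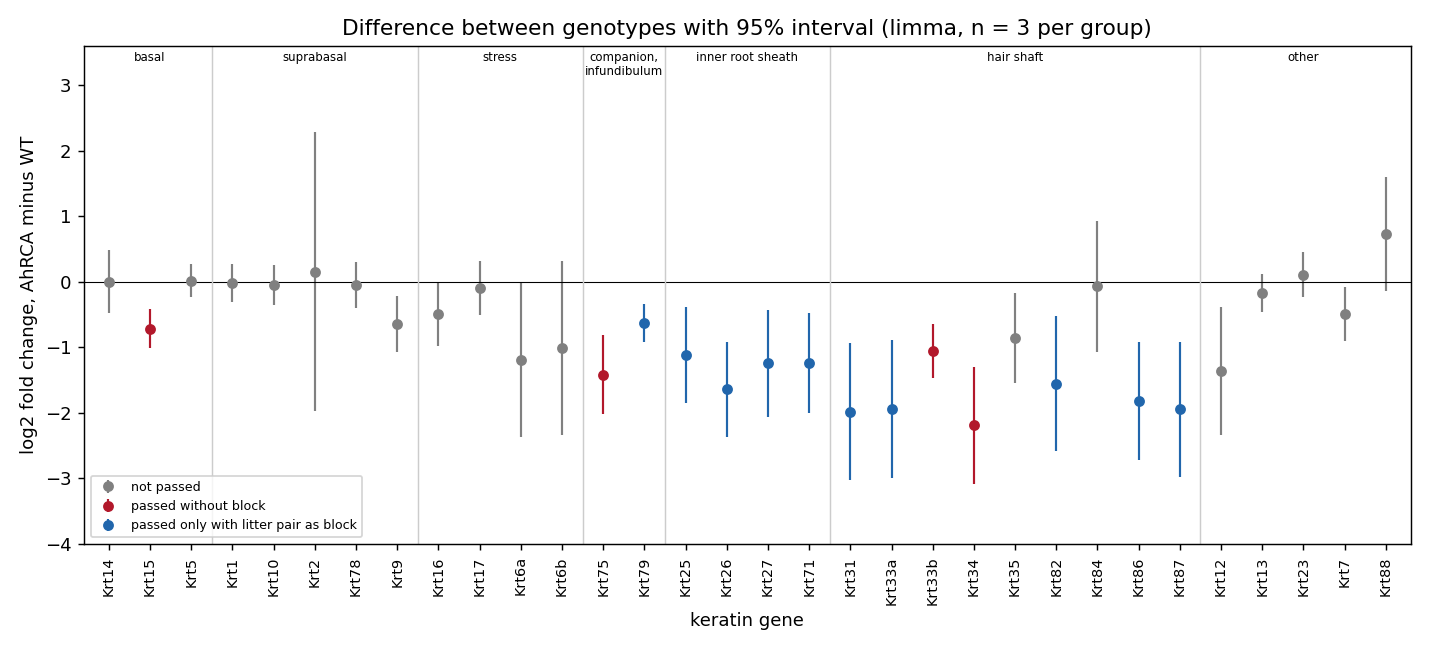
Log2 fold change (AhRCA minus WT) of each tested keratin with its 95% interval from limma (n = 3 per group). Red points passed an adjusted p of 0.05 without a block (4 keratins, of which Krt15 did not pass with the block), blue points passed only when blocked on the litter pair, and grey points passed neither.

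Krt5 and Krt14 form the filaments of basal keratinocytes. Krt5 stood at 8.11, 8.18 and 8.10 in WT and 8.12, 8.25 and 8.06 in AhRCA. Krt14 stood at 8.21, 8.0 and 7.57 in WT and 7.96, 8.13 and 7.69 in AhRCA. For both genes the arrays of the genotypes overlapped. The log2 fold changes were 0.016 ± 0.10 for Krt5 (95% interval -0.23 to 0.27, adjusted p = 0.999, limma) and 0.0018 ± 0.20 for Krt14 (95% interval -0.47 to 0.48, adjusted p = 0.999). The sign of neither is determined: both values were negative under quantile normalization (-0.0029 and -0.076), and that of Krt14 also on slide 1 alone (-0.058).

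Krt15, a type I keratin of basal cells and of the follicle's stem cell region, was lower in AhRCA. It stood at 7.32, 7.61 and 7.63 in WT and 6.86, 6.73 and 6.83 in AhRCA, so that every AhRCA array lay below every WT array. The fall was -0.72 ± 0.13 (limma, adjusted p = 0.046), a 1.64-fold lower level, with differences of -0.46, -0.88 and -0.81 within litter pairs 1, 2 and 3. Blocking on the pair gave an adjusted p of 0.0534 and blocking on the slide 0.0323. The call was also lost under other scalings (limma, adjusted p = 0.0838 with each array's median subtracted and 0.0626 with quantile normalization).

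Krt1 and Krt10 replace the basal pair in the suprabasal layers. Krt1 stood at 7.80, 7.92 and 7.81 in WT and 7.79, 7.99 and 7.68 in AhRCA. Krt10 stood at 8.95, 9.02 and 8.87 in WT and 8.98, 9.02 and 8.69 in AhRCA. Neither differed beyond the spread between arrays, with -0.026 ± 0.12 (95% interval -0.32 to 0.26) and -0.051 ± 0.13 (95% interval -0.36 to 0.26) on the log2 scale and adjusted p of 0.999 each (limma); that of Krt1 was positive (0.0073) when each array's median was subtracted in place of the 75th percentile. The Krt10 probe read raw intensities of 310653 to 359326, where the brightest spot of an array read 360228 to 380788; no spot was marked as saturated, and whether the scale flattens near its top was not tested. Krt78, a type II keratin of the upper epidermis, had -0.051 ± 0.14. Krt9, known from the skin of palms and soles, was lower on every AhRCA array than on any WT array and did not pass (-0.64 ± 0.18, adjusted p = 0.164, and 0.159 with the pair as a block); its signal was dim, and with normexp background correction the value was -0.23. Of the 5 suprabasal keratins 0 passed in either fit (limma), and 1, Krt9, had an unadjusted p under 0.05.

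Krt2, a keratin of the upper spinous layer in particular body regions, varied widely between mice of 1 genotype. It stood at -1.73, -4.35 and -4.50 in WT and -3.80, -2.0 and -4.33 in AhRCA. WT replicate 1 and AhRCA replicate 2 were the high arrays, and the dimmer of its 2 probes was highest on the same arrays, at -2.68, -4.89 and -4.83 in WT and -4.41, -2.82 and -4.71 in AhRCA. The log2 fold change of 0.15 ± 0.89 is undetermined in sign, with a 95% interval of -1.98 to 2.29, and its probe was well above background on 2 of 3 WT and 3 of 3 AhRCA arrays.

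Among the stress keratins, lower values in AhRCA did not pass the test. Krt6a stood at 5.09, 3.67 and 3.16 in WT and 3.05, 3.02 and 2.29 in AhRCA, with every AhRCA array below every WT array. Krt6b, its neighbour and close copy, stood at 4.22, 2.61 and 2.08 in WT and 2.12, 2.36 and 1.42 in AhRCA, and its genotypes overlapped. In both genes WT replicate 1 was the highest of the 6 arrays and AhRCA replicate 3 the lowest. The log2 fold changes were -1.19 ± 0.50 for Krt6a (adjusted p = 0.409, limma) and -1.0 ± 0.56 for Krt6b (adjusted p = 0.627), and without WT replicate 1 they were -0.63 and -0.38. Krt6a and Krt6b are close copies, and their probes may read both transcripts.

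Krt16, the type I partner of Krt6, stood at 7.43, 7.21 and 6.87 in WT and 6.78, 6.88 and 6.35 in AhRCA. Its log2 fold change was -0.50 ± 0.20 (adjusted p = 0.385, limma), lower in all 3 litter pairs, with an adjusted p of 0.0486 when the slide was a block and 0.0787 when the pair was. Krt17, which is present in most layers of the growing follicle, stood at 7.91, 7.89 and 7.50 in WT and 7.75, 7.85 and 7.41 in AhRCA and showed no separation of the genotypes (-0.093 ± 0.17, 95% interval -0.51 to 0.32). All 4 stress keratins were lower in AhRCA in all 3 pairs, but 0 of 4 passed in the fit with or without the litter pair (limma), and 2 had an unadjusted p under 0.05.

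Krt75 marks the companion layer, the thin sheet between the inner and the outer root sheath, and Krt79 the infundibulum and the duct of the sebaceous gland. Krt75 stood at 5.03, 5.60 and 4.83 in WT and 3.42, 4.10 and 3.69 in AhRCA, and all AhRCA arrays were below all WT arrays. It fell by 1.42 on the log2 scale (SE 0.25, limma, adjusted p = 0.0475, 0.0153 when blocked on the litter pair), a 2.67-fold lower level, and lost its call whichever array was left out (adjusted p between 0.0635 and 0.146). Krt79 stood at 6.71, 6.92 and 6.66 in WT and 6.12, 6.24 and 6.05 in AhRCA. Its fold change of -0.63 ± 0.12 was of nearly equal size in the 3 pairs (-0.59, -0.69 and -0.60); it missed the threshold without a block (adjusted p = 0.0602) and passed with the litter pair (0.0317) or the slide (0.0294). Genes of the neighbouring sebaceous gland moved with them: 6 of 6 tested fell (limma), against 1.65% of all genes called lower. The fall was led by Elovl3, Soat1, Cidea and Pparg, with log2 fold changes between -3.57 (Elovl3) and -1.17 (Awat2). With normexp background correction Elovl3 was -2.635, and Awat2 was -0.49 and did not pass. The summed relative intensity of the 6 genes (linear, with the 75th percentile of an array as 1) was 14.1 to 19.8 in WT and 3.69 to 4.32 in AhRCA. Such a sum weighs the brightest probe most, here that of Cidea. Mc5r was not well above background on any array, and the part of these genes in the result was not tested.

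The inner root sheath hardens before the hair does and guides it outward. Its type II keratin Krt71 stood at 6.75, 7.73 and 7.25 in WT and 5.47, 6.39 and 6.14 in AhRCA. The sheath's type I keratins included Krt25, at 4.79, 5.77 and 4.99 in WT and 3.61, 4.35 and 4.25 in AhRCA, and Krt27, at 4.47, 5.53 and 5.13 in WT and 3.22, 4.03 and 4.13 in AhRCA. Krt26, a type I keratin of the sheath cuticle, stood at -0.12, 0.74 and 0.60 in WT and -1.75, -1.02 and -0.94 in AhRCA. For each of the 4 genes every AhRCA array lay below every WT array. Within the genotypes WT replicate 1 was the lowest WT array and AhRCA replicate 1 the lowest AhRCA array for all 4.

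The log2 fold changes were -1.24 ± 0.32 for Krt71, -1.12 ± 0.31 for Krt25, -1.25 ± 0.34 for Krt27 and -1.64 ± 0.30 for Krt26, which are levels 2.37-, 2.17-, 2.38- and 3.12-fold lower. Within the 3 litter pairs Krt71 differed by -1.27, -1.34 and -1.11 and Krt26 by -1.63, -1.76 and -1.54. Without a block 0 of 4 passed (limma, adjusted p between 0.0524 for Krt26 and 0.162 for Krt25), although all 4 had an unadjusted p under 0.05. All 4 fell once the litter pair was a block, at adjusted p of 0.00761 for Krt26, 0.0117 for Krt71, 0.0184 for Krt27 and 0.0378 for Krt25. With the slide as a block only Krt26 of the 4 passed (0.0482), and Krt71 (0.137), Krt27 (0.14) and Krt25 (0.16) did not.

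The hair shaft keratins had the lowest median fold change of the groups. Among type I keratins, Krt34, of the hair cortex, stood at 0.98, 2.38 and 1.30 in WT and -1.02, -0.41 and -0.48 in AhRCA. Krt33a, of the cortex, stood at 2.21, 3.72 and 3.18 in WT and 0.42, 1.43 and 1.43 in AhRCA, and Krt31, also cortical, at -0.47, 1.13 and 0.64 in WT and -2.12, -1.28 and -1.26 in AhRCA. No AhRCA array reached the lowest WT array in any of these. Krt34 fell, with differences of -2.0, -2.79 and -1.78 within pairs 1, 2 and 3; its fold change was -2.19 ± 0.37 on the log2 scale (adjusted p = 0.0414, limma, 0.0184 when blocked on the litter pair and 0.0537 on the slide, which ends the call) or a 4.57-fold lower level. For Krt33a the log2 fold change was -1.94 ± 0.44 and for Krt31 -1.98 ± 0.44; both missed the threshold without a block (adjusted p = 0.0969 and 0.088) and passed with the pair (0.0115 and 0.0151).

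Krt33b, also of the cortex, was read by 2 probes that agreed in direction but not in size. The brighter one, which stood for the gene, read 2.19, 2.25 and 2.39 in WT and 0.95, 1.17 and 1.55 in AhRCA, with little spread among the WT arrays. The dimmer one read 1.38, 2.93 and 1.83 in WT and -0.65, -0.28 and -0.33 in AhRCA, with WT replicate 2 high as for the other shaft keratins. The log2 differences were -1.06 ± 0.17 (adjusted p = 0.0356, limma) for the brighter probe and -2.47 ± 0.38 for the dimmer one. Krt33a and Krt33b are close copies, as are Krt81 and Krt86, and probes of such copies can share transcripts. Krt35, which appears early, in the hair matrix and cuticle, stood at 4.92, 5.88 and 5.12 in WT and 4.07, 4.67 and 4.60 in AhRCA. It had a smaller log2 fold change, -0.86 ± 0.29, and did not pass with the litter pair (0.0666) or without it (0.264, limma).

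Type II shaft keratins showed a similar picture. Krt86 stood at 1.13, 2.57 and 1.53 in WT and -0.44, 0.16 and 0.052 in AhRCA. Krt87 stood at 0.91, 2.34 and 1.59 in WT and -1.03, -0.095 and 0.12 in AhRCA. All AhRCA arrays of both lay below all WT arrays, and their log2 fold changes were -1.82 ± 0.38 and -1.95 ± 0.43 (adjusted p = 0.0713 and 0.0889 without and 0.0266 and 0.0206 when blocked on the litter pair, limma). Krt82, of the hair cuticle, had a log2 fold change of -1.56 ± 0.43 and also passed with the pair (0.0122); with normexp background correction the value was -0.87. Krt84, known from the tongue, was the exception. It stood at -2.90, -2.57 and -2.68 in WT and -1.78, -3.10 and -3.48 in AhRCA, highest on AhRCA replicate 1, the array on which the other 8 had their lowest AhRCA value, and its fold change was -0.072 ± 0.42. In all, 2 of 9 shaft keratins fell without and 7 when blocked on the litter pair, and 8 had an unadjusted p under 0.05. Blocked on the slide only Krt33b of the 9 fell, and Krt34, Krt86, Krt31, Krt87 and Krt33a had adjusted p of 0.0537 to 0.0944. On slide 1 the group's median was -1.99 and on slide 2 -1.47.

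The follicle keratins also shared an order of the WT mice and, in AhRCA, the lowest mouse. Of 13 inner root sheath and hair shaft keratins tested, WT replicate 1 was the lowest WT array for 13 and WT replicate 2 the highest for 12. AhRCA replicate 1 was the lowest AhRCA array for 12, while replicates 2 and 3 were each the highest AhRCA array for 6. How many of all genes follow such an order was not computed. The stress keratins had another order, with WT replicate 1 the highest WT array for 4 of 4 and replicate 3 the lowest of its genotype for 4 of 4 in both genotypes. For the hair shaft the median deviation from the WT mean was -0.61, 0.69 and 0.036 in WT 1 to 3 and -2.29, -1.58 and -1.49 in AhRCA 1 to 3. For the inner root sheath it was -0.51, 0.49 and 0.047 in WT 1 to 3 and -1.80, -0.93 and -1.02 in AhRCA 1 to 3, and for the basal keratins -0.022, 0.076 and -0.026 in WT 1 to 3 and -0.01, 0.12 and -0.23 in AhRCA 1 to 3. The AhRCA arrays were below the lowest WT array for the shaft and the sheath, and overlapped with WT for the basal keratins.

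**Figure D3:**
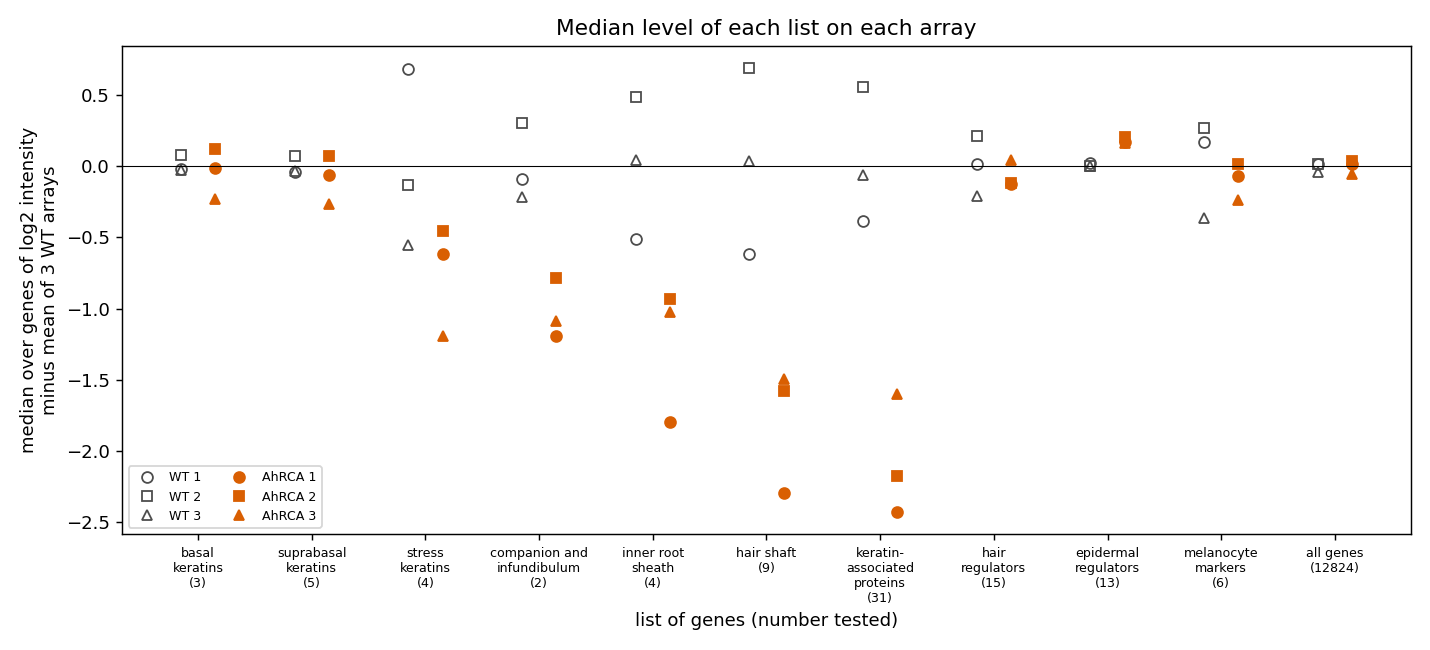
Median over the tested genes of each list (number in brackets) of the log2 intensity minus the mean of the 3 WT arrays, for each of the 6 arrays (open grey, WT; filled orange, AhRCA; circle, square and triangle, litter pairs 1 to 3). Sheath, shaft and keratin-associated protein medians of AhRCA lie between -2.43 and -0.93, below every WT array, while regulators and melanocyte markers stay within 0.4 of the WT mean.

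The RefSeq table of the GRCm38.p6 assembly held promoters, from 250 bases before to 50 after the annotated start, for 23 of the 36 keratins (24 promoters). Shown are the promoters of the neighbouring shaft keratins Krt31, Krt33b and Krt34, which were all lower in AhRCA, of Krt26 as the sheath keratin with the lowest adjusted p with the litter pair, and of Krt10, which did not separate the genotypes. They are written 5′ to 3′ on the minus strand, at chr11:100050502-100050801, chr11:100029819-100030118, chr11:100041505-100041804, chr11:99337916-99338215 and chr11:99389315-99389614. Capitals mark matches, on either strand, to 3 of the motifs searched. One is CTTTGAA, a motif of the Wnt signalling factors LEF1 and TCF. The others are the TATA box, searched as the letters TATAAA, and the core of the element that AhR binds with its partner ARNT, which has the letters GCGTG.
Krt31: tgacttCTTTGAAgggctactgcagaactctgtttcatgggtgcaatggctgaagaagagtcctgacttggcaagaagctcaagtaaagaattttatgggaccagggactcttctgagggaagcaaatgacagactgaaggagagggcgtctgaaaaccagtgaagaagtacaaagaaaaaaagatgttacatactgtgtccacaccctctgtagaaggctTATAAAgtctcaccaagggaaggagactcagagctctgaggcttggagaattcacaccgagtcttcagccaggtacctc
Krt33b: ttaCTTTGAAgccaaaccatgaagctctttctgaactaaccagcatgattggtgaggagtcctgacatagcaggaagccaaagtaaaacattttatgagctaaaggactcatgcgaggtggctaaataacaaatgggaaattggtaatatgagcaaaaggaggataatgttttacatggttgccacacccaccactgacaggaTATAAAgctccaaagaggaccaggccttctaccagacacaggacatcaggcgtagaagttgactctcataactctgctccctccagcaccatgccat
Krt34: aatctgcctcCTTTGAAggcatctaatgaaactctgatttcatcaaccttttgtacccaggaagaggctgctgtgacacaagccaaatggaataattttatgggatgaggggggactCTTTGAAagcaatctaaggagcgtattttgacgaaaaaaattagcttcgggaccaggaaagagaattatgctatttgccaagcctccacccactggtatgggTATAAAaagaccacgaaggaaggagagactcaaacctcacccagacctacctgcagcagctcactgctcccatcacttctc
Krt26: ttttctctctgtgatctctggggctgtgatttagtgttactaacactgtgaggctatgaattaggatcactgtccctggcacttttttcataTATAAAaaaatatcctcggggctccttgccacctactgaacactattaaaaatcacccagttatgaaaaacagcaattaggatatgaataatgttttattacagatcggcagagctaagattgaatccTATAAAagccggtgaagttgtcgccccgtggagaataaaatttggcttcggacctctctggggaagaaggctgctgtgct
Krt10: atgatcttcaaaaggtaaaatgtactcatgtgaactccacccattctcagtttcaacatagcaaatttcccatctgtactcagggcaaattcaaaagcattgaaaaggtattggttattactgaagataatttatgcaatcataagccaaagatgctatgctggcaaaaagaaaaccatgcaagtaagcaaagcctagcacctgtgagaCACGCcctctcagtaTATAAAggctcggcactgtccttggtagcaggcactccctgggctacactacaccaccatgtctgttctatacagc

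Krt31, Krt33b and Krt34 each held CTTTGAA near the far end of the window, at positions -244, -247 and -240 from the start, and Krt34 held another at -133. The motif was found in 3 of 5 hair shaft promoters, 0 of 4 of the inner root sheath, 0 of 2 basal and 0 of 4 suprabasal ones, and in 5.14% of all 32851 promoters. The 3 are those of neighbouring genes with a match at nearly the same position, so they may not be independent. Whether these promoters are copies was not tested. TATAAA stood in 4 of 4 sheath and 4 of 5 shaft promoters (13.6% of all). GCGTG was found in 4 of 24 keratin promoters, those of Krt14, Krt10, Krt25 and Krt23, in 0 of 5 of the shaft and in 32.4% of all promoters. CTTTGTT, a second LEF1 and TCF motif, stood in 1 keratin promoter, that of Krt25 (5.85% of all). The AP-1 motif TGANTCA stood in 2, both of Krt13 (7.81% of all). A match in these windows is a description of the letters and shows no binding.

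Keratin genes lie in 2 clusters, one of type I and one of type II genes, and neighbours in a cluster often belong to different layers. In the type I cluster the sheath keratins Krt25, Krt26 and Krt27 lie on the same side of Krt10, with log2 fold changes of -1.12, -1.64 and -1.25 beside -0.051. The shaft keratins Krt33a, Krt33b, Krt34 and Krt31 follow each other, with -1.94, -1.06, -2.19 and -1.98. In the type II cluster Krt6a, Krt5 and Krt71 lie in a row, with -1.19, 0.016 and -1.24. Of 17 tested type I keratins 15 had a negative fold change, and of 15 tested type II keratins 12 did, as did 49.6% of all genes.

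**Figure D4:**
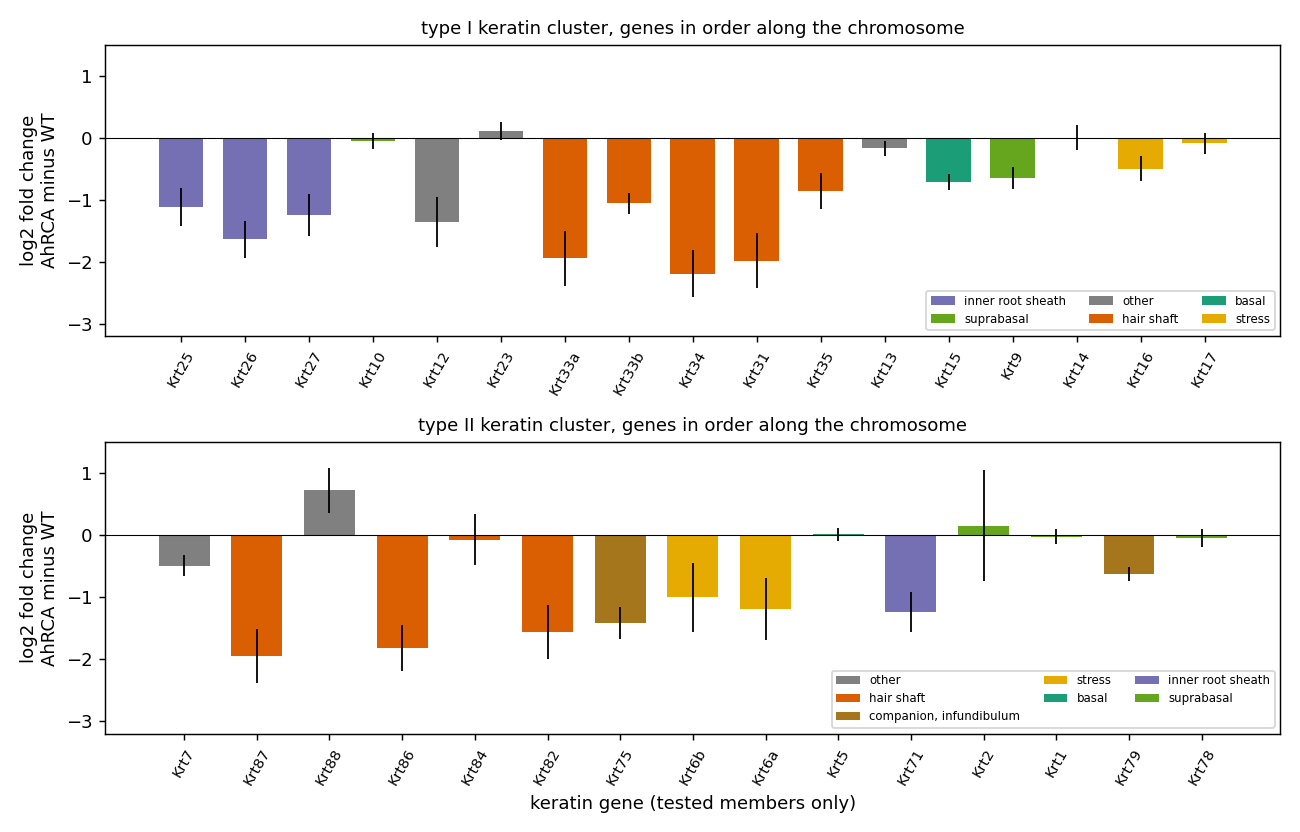
Log2 fold change (AhRCA minus WT; bars, with the standard error of limma as lines) of the tested keratins in their order along the type I cluster (top) and the type II cluster (bottom), coloured by place of expression. Bars near 0, such as Krt10 at -0.051 and Krt5 at 0.016, stand beside sheath keratins at -1.25 and -1.24.

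Of the 9 other keratins, 5 were tested and 0 passed in either fit (limma), while 2 had an unadjusted p under 0.05. Krt12, a keratin of the cornea, had -1.36 ± 0.41, and Krt7, of simple and glandular epithelia, -0.49 ± 0.17; both were lower on every AhRCA array than on any WT array. Krt13, of mucosal epithelia, had -0.17 ± 0.12, Krt23, of simple epithelia, 0.11 ± 0.14, and Krt88 0.73 ± 0.36, the last well above background on 1 of 3 WT and 2 of 3 AhRCA arrays and at 0.25 with normexp. Among the excluded keratins Krt8 and Krt20 fell (-2.08 ± 0.23 and -2.61 ± 0.26, adjusted p = 0.0108 and 0.0082, limma), Krt18 had -1.39 ± 0.26 and Krt19 -0.21 ± 0.17; that of Krt20 was -1.44 with normexp background correction. Of their companions as Merkel cell markers the Piezo2 probe was well above background on 3 of 3 WT and 0 of 3 AhRCA arrays, so that its size of difference was not measured, and Atoh1 was not well above background on any array. The summed relative intensity of the 5 of 7 such markers tested was 1.62 to 2.4 in WT and 0.557 to 0.84 in AhRCA. The part of these cells in the result was not tested.

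Genes for proteins that surround keratin filaments were read in the same way. Of 31 tested keratin-associated proteins (40 on the array), which form the matrix of the shaft and many of which are close copies, 28 were well above background on at least 1 array of each genotype. Of these 28, 13 fell and 0 rose without a block (limma, against 1.65% of all genes called lower and 0.53% called higher). An unadjusted p under 0.05 was found for 25, all lower (7.57% of all genes). With the litter pair 17 fell (2.81% of all genes). A gene dim in AhRCA can pass the filter through its WT arrays, so these counts lean towards genes that differ. Krtap1-5, Krtap2-4 and Krtap5-2, all among the 13, and Krtap5-3 and Krtap24-1 were well above background on 1 of 3 AhRCA arrays. The median log2 fold change of the 31 was -2.09 (-1.98 with Krtap14, Krtap19-9b and Krtap7-1, which were not well above background in AhRCA, at their bound). These bounds were at least 2.28-, 2.87- and 1.34-fold lower, as the mean of the WT arrays over the lowest signal well above background on each AhRCA array. Among the 13, the lowest values were those of Krtap5-2 (-2.50 ± 0.30), Krtap4-2 (-2.49 ± 0.40), Krtap4-16 (-2.44 ± 0.36) and Krtap2-4 (-2.41 ± 0.38). Krtap5-2 and Krtap2-4 were well above background on 1 of 3 AhRCA arrays, and with normexp background correction the 4 values were -1.13, -1.46, -1.99 and -0.74, the last of which did not pass. Of 22 partners and crosslinkers of filaments tested and measured in both genotypes 1 fell without and 3 with the pair as a block, and 0 rose. Of all genes 1.65% and 2.81% were called lower in these fits. Padi4, a deiminase, fell by 1.43 (SE 0.17, adjusted p = 0.014). With the block Tchh, the trichohyalin that fills the inner root sheath (-1.17 ± 0.30), and Padi3, which modifies trichohyalin (-1.47 ± 0.31), fell as well. Tchhl1, a relative of Tchh, was not well above background in AhRCA. Set to the lowest such signal it was 2.48-fold lower, and with normexp background correction its log2 fold change was -0.68. Rptn (-0.80 ± 0.18), Padi1 (-0.47 ± 0.19) and the envelope crosslinker Tgm1 (-0.32 ± 0.13) were lower on every AhRCA array than on any WT array. This was so for 8.84% of all genes. Rptn, Padi1 and Tgm1 did not pass in either fit, although Rptn passed with the slide as a block. The other 16, among them the desmosome gene Dsp and the cornified envelope gene Lor, had an unadjusted p of 0.05 or more and lay between -0.16 (Plec) and 0.21 (Dst). Apart from Padi4 these genes were named after their values were seen.

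Transcription factors and signals known to direct these keratins did not pass in the fit without a block. Of 15 tested regulators of hair differentiation 0 rose and 0 fell (limma; 2 had an unadjusted p under 0.05), the median was -0.15, and the largest changes were those of Bmp2 (0.69 ± 0.16, which passed with the litter pair, adjusted p = 0.038) and Foxe1 (-0.66 ± 0.30). Hoxc13 and Foxn1, which act on shaft keratin genes and were named after their values were seen, had -0.44 ± 0.30 (95% interval -1.16 to 0.28) and 0.12 ± 0.19 (95% interval -0.34 to 0.59), and Gata3, a regulator of the inner root sheath, 0.19 ± 0.13. Of 13 tested regulators of the epidermis 0 passed in either fit (limma), and 2 had an unadjusted p under 0.05, both higher. Their median was 0.16, with the largest values in Hes1 (0.56 ± 0.14) and Ovol1 (0.43 ± 0.27). Of the 13, 11 had a positive fold change, as did 6463 of 12824 genes. For 5 of them every AhRCA array lay above every WT array, which was so for 964 of 12824 genes.

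Markers of other cells in the sheet were read beside the keratins. Of 6 tested melanocyte markers 0 passed (limma; 0 had an unadjusted p under 0.05), the largest differences being those of Mitf (-0.46 ± 0.22) and Oca2 (-0.42 ± 0.23), and their summed relative intensity was 60.5 to 88 in WT and 68.5 to 82.2 in AhRCA. Of 6 markers of the outer root sheath and stem cells Lgr5 fell (-0.83 ± 0.11, adjusted p = 0.0199). Cd34 (0.82 ± 0.23) and Postn (0.47 ± 0.12) were higher on every AhRCA array than on any WT array and did not pass; 3 of the 6 had an unadjusted p under 0.05, 2 of them higher, and the median was 0.032. Of 7 tested dermal markers 0 passed (limma; 1, Col1a2, had an unadjusted p under 0.05), with Col1a2 at -1.19 ± 0.23 and Col3a1 at 0.85 ± 0.68, and a summed relative intensity of 18.5 to 26.3 in WT and 19.6 to 20 in AhRCA; Sox2, Pdgfra and Rspo3 were not well above background in either genotype. Of 2 tested muscle markers 0 passed without a block (limma; 1, Myh8, had an unadjusted p under 0.05), with Myh8 at -1.23 ± 0.32 (adjusted p = 0.0444 with the litter pair, and -0.76 with normexp) and Acta1 at -0.083 ± 0.35, and a sum of 0.342 to 0.523 in WT and 0.207 to 0.281 in AhRCA. For the shaft keratins the same sum was 46.5 to 96 in WT and 22.3 to 33.9 in AhRCA. Each sum mostly follows its brightest probe: Krt35 in the shaft, Dct among the melanocyte markers and Dcn among the dermal ones. The sums therefore compare arrays for such probes. They do not compare lists with each other or give amounts of a cell type. The part of these cells in the keratin differences was not tested.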

How the data were processed

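Total RNA of each epidermis was labelled with Cy3 for 1-colour arrays, per the labels' protocols. The deposited scanner files hold linear intensity values, among them a background-corrected processed signal, written by Feature Extraction 10.7.3.1, per the file headers. The authors' deposited log2 table (41267 probes) matched differences of scanner values (slope 1) and was centred on 0 for each probe; its column medians were -0.070, -0.049 and 0.083 in WT and 0.028, 0.063 and -0.070 in AhRCA.

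Control spots and outlier spots (56 to 94 an array) were dropped, spots of a probe averaged, and log2 intensity minus the array's 75th percentile taken. Of 41174 probes 26690 had 1 gene symbol through their RefSeq accession, 0 several and 14484 none. A probe was kept if 3 or more of the 6 arrays had it well above background, and the brightest kept probe stood for a gene. The groups were compared with limma 3.58.1 in R 4.3.3 (2-sided, Benjamini-Hochberg over 12824 genes), tested on simulated data. Because the labels tie each AhRCA mouse to a WT littermate and same-numbered arrays correlated (others -0.416 to 0.194), the fit with the litter pair as a replicate block is given beside the results. The negative values among the others all crossed slide and sex, and those within slide 1 were 0.1505 and 0.194. The contrast thus holds slide and sex as well as number, and that equal numbers are littermates remains an assumption.

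Alternatives were other scalings, filters, probe rules and blocks, the authors' values, and normexp (offset 50), run on the median spot signal in place of the planned mean spot signal, a column that the scanner files used here do not list. A genotype-by-slide interaction was added after seeing the data. Values on all arrays are given for the main epidermal, stress, companion layer and sheath keratins, for the called and the brightest shaft keratins, and for Krt84, added after its values were seen. From other lists the called genes are named, up to 4, or otherwise the 2 with the largest change. The members and lists were chosen with earlier results of these data known.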

Additional observations from a re-analysis of the deposited data

Results flagged for a closer look

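The genotype difference of Krt5, Krt23 and Krt78 was above 0 in litter pairs 1 and 2 (female, slide 1) and below 0 in pair 3 (male, slide 2). The log2 difference in pair 3 minus that in the other pairs was -0.084 for Krt5, -0.44 for Krt23 and -0.55 for Krt78. An interaction of genotype and slide, fitted with limma after the data were seen, gave adjusted p of 0.86, 0.552 and 0.491. It called 0 of 32 keratins (limma, 1 with an unadjusted p under 0.05) and 1 of 12824 genes. Opposite signs of this kind occurred in 3 of 32 keratins (9.38%) and in 29.1% of all genes. Slide, sex and litter cannot be told apart.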

How the results depend on the processing

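Under alternative settings the count of keratins lower in AhRCA was 0 with no filter on dim probes (36 tested), 13 with the litter pair as a replicate block and 1 on slide 1 alone, against 4; it was 3 to 6 under the other scalings, filters, probe rule, slide block and authors' values, and 0 to 4 with 1 array left out. All genes called numbered 132 with no filter, 497 with the litter pair, 539 with the slide as a block and 130 on slide 1 alone, against 279, and 62 to 195 with 1 array left out. The cause was not tested. Over the settings that left out no array the median log2 fold change ranged from -1.99 to -1.72 for the hair shaft and from -1.34 to -1.21 for the inner root sheath. Krt33b was -1.76 with the mean of its probes. Which keratins passed also changed with the scaling. They were Krt26, Krt33b and Krt34 with each array's median subtracted, and Krt34, Krt75 and Krt79 with quantile normalization. Without 1 array the basal median ranged from -0.18 to 0.057, Krt5 from -0.038 to 0.057, Krt14 from -0.18 to 0.14, Krt1 from -0.11 to 0.045, Krt10 from -0.11 to 0.054, Krt2 from -0.53 to 1.05 and Krt17 from -0.23 to 0.037. Signs also turned under quantile normalization in Krt5 (-0.0029) and Krt14 (-0.076), with each array's median subtracted in Krt1 (0.0073), and on slide 1 alone in Krt14 (-0.058), Krt1 (0.029) and Krt10 (0.017). Of 351 values of 22 single keratins 283 kept direction and call, 34 lost and 17 gained the call, and 17 turned sign. Signal near background limits Krt2, Krt9, Krt82, Krt84 and Krt88; with normexp Krt9 was -0.23, Krt82 -0.87, Krt88 0.25 and Krt84 0.021.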

Other observations

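Single arrays set some keratins apart; these were chosen after their values were seen. The cornea keratin Krt12 read -0.71, -1.21 and -0.87 in WT and -3.05, -1.37 and -2.45 in AhRCA, so that AhRCA replicate 2 lay close to WT. The dimmer of the 2 Krt13 probes read -2.23, -1.63 and 0.67 in WT and -2.22, -1.52 and -0.28 in AhRCA, highest on slide 2 in both genotypes, while the brighter probe read 5.95, 5.74 and 5.95 in WT and 5.60, 5.71 and 5.83 in AhRCA.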
